A study of Mus musculus with 32 samples.

Results

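The genes described here are 10 transcripts that carry, import, reduce, store or export iron, or use copper to oxidise it: Trf, Tfrc, Slc40a1, Slc11a2, Slc39a14, Steap3, Steap4, Fth1, Cp and Heph. They were chosen by name from the probe-to-gene table, each by the probe sets that carry its symbol alone, and all 10 were found with 1 probe set each, among 19938 gene symbols and 35556 probe sets on the array. The RiboTag assay was used to obtain ribosome-bound mRNA from 2 somatic cell types of the mouse testis. In these mice, double heterozygous for RiboTag and a Cre transgene, Cre recombinase switches on a hemagglutinin (HA) tag on a ribosomal protein, and an anti-HA immunoprecipitate (IP) of testis homogenate then recovers the tagged ribosomes and their mRNA. The homogenate itself is the input and holds RNA of all testis cells.

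AMH-Cre: RiboTag mice carry the tag in Sertoli cells, the supporting cells of the seminiferous tubule, and Cyp17iCre: RiboTag mice in Leydig cells, the androgen-producing cells between the tubules. The AMH-Cre: RiboTag arrays comprised 5 inputs and 5 IPs after saline and 2 IPs each after acyline, acyline followed by FSH for 1 h, acyline followed by FSH for 4 h, cetrorelix, and cetrorelix followed by testosterone. The Cyp17iCre: RiboTag arrays comprised 3 inputs and 3 IPs after saline and 2 IPs each after acyline, acyline followed by LH for 1 h and acyline followed by LH for 4 h. Acyline and cetrorelix are GnRH antagonists, which lower the pituitary gonadotropins LH and FSH; they were given for 4 days before LH and for 3 days in the AMH-Cre: RiboTag mice. Per the study's methods the hormone-treated AMH-Cre: RiboTag mice were adults, and arrays were run on those whose serum hormone levels had been checked. The labels give neither strain nor age. The Cyp17iCre driver was not restricted to Leydig cells, since the tag also appeared in a few cells inside the tubules, which limits this line as a source of Leydig cell RNA alone. From its mRNA enrichment the study proposes that these scattered cells are Sertoli cells. For the 4 cetrorelix arrays 1 label reads input while the titles and sample types read IP. They were treated as IPs, and their mean log2 signal of Sertoli cell markers lay between 11.04 and 11.27, against 8.71 to 8.95 in the inputs of that line.

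Iron travels between cells bound to transferrin (Trf), which enters a cell with the transferrin receptor (Tfrc). In the endosome the iron is released and reduced by Steap3, and the divalent metal transporter Slc11a2 moves it into the cytosol. Slc39a14 and other transporters take up iron that is not bound to transferrin, and Steap4 is a related metalloreductase of iron and copper. Inside the cell the heavy chain of ferritin (Fth1) oxidises iron for storage, and ferroportin (Slc40a1) exports it with the help of the copper oxidases ceruloplasmin (Cp) and hephaestin (Heph). In the testis, germ cells behind the barrier formed by Sertoli cells depend on iron passed to them, and transferrin is a classical secretory product of Sertoli cells.

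All values below are log2 signals after RMA, a summary of several probes per gene. They were compared between arrays for 1 gene and not between genes, because probes differ in brightness. Array medians lay between 6.36 and 6.50. Of the markers of the tagged cells, all 9 measured for Sertoli cells were higher in the Sertoli IPs than in their inputs, and all 5 for Leydig cells in the Leydig IPs. Markers of other cells in the IPs were mixed: 6 of 8 spermatocyte and spermatid markers were lower in the IPs of both lines, as were 6 of 8 tested macrophage markers in the Sertoli IPs and 6 of 9 in the Leydig IPs. By limma, 0 of 6 endothelial markers passed in either line, with an unadjusted p under 0.05 for 4 in the Sertoli line and 6 in the Leydig line. Of 5 peritubular myoid markers 1 was higher and 1 lower in each line. Equal amounts of RNA were labeled, so that fewer cells of a type and less RNA per cell cannot be told apart. The labels number the replicates without naming animals, while the study's text counts them as mice.

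**Figure D1:**
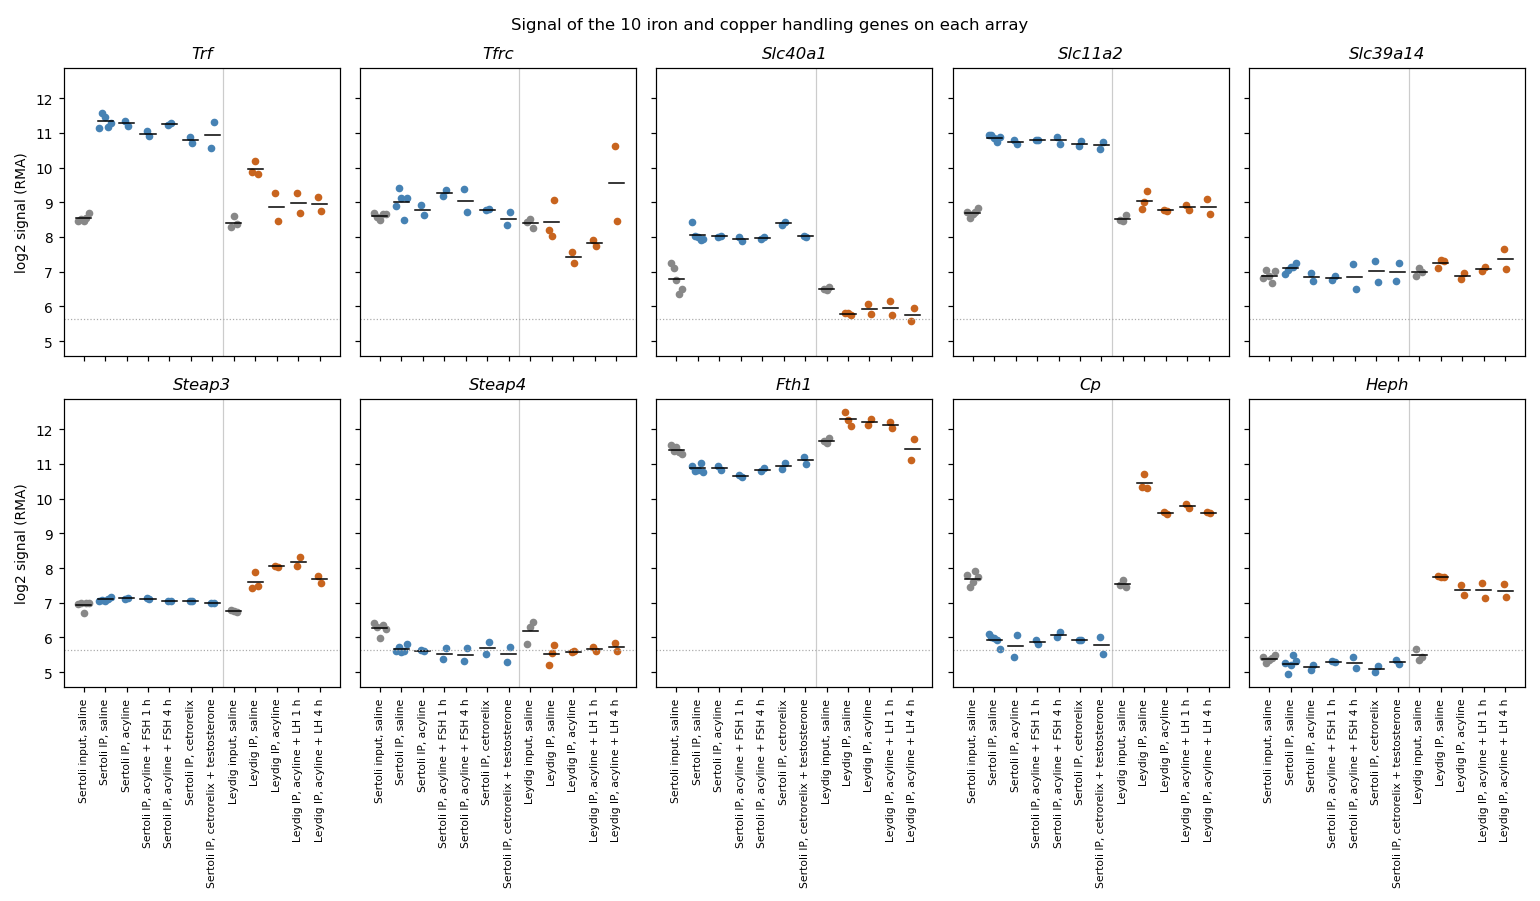
Log2 signal of each of the 10 genes (1 panel per gene) on all 32 arrays, by group. Each point is 1 array, grey for inputs, blue for Sertoli IPs and orange for Leydig IPs; black lines are group means, the dotted line is a linear signal of 50 (5.64 on the log2 scale) and the vertical line divides the 2 mouse lines. Trf, Slc40a1 and Slc11a2 were highest in the Sertoli IPs, Cp and Heph in the Leydig IPs, and Fth1 in the Leydig IPs other than those 4 h after LH.

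The first comparison asked which of these mRNAs were carried by ribosomes of Sertoli cells more or less than in whole testis. Of the 9 genes tested, Trf, Slc11a2 and Slc40a1 were called higher in the Sertoli IPs, while Cp was called lower. A call required a Benjamini-Hochberg adjusted p under 0.05 in limma and a fold of at least 2. The background was high: 12.4% of the 24797 probe sets tested were called higher and 11.7% lower. The other 5 genes tested passed the adjusted p but not the fold, with differences on the log2 scale from -0.59 to 0.40. Heph stayed below a linear signal of 50 on all 10 arrays and was not tested.

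Trf had signals of 11.15, 11.56, 11.45, 11.18 and 11.29 in the 5 Sertoli IPs and of 8.45, 8.52, 8.47, 8.56 and 8.68 in the inputs. Every IP was more than 2 log2 units above every input, and the difference of 2.79 (95% CI 2.60 to 2.98) was the largest of the 10 genes in this line. Slc11a2, the endosomal iron transporter, followed the same order, with 10.94, 10.94, 10.84, 10.73 and 10.87 in the IPs and 8.72, 8.55, 8.67, 8.72 and 8.84 in the inputs. The groups did not overlap and the fold was 4.48 (log2 2.16, SE 0.068, limma adjusted p = 1.83e-10). Slc40a1, the exporter ferroportin, had 8.44, 8.03, 8.00, 7.91 and 7.95 in the IPs and a wider spread in the inputs, with 7.26, 7.10, 6.77, 6.37 and 6.49. The lowest IP was above the highest input, and the difference was 2.41-fold (log2 1.27, SE 0.17, limma adjusted p = 2.66e-05). Macrophages also carry ferroportin, and the mean log2 signal of 9 macrophage markers was lower in these IPs (5.52 to 5.68) than in the inputs (6.55 to 6.91). By group mean, 4 of the 9 were under a linear signal of 50 in the IPs and 2 in the inputs. Their part in the Slc40a1 value was not tested.

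Cp, the secreted ferroxidase, went the other way, with 6.11, 6.01, 5.99, 5.93 and 5.66 in the Sertoli IPs and 7.79, 7.44, 7.59, 7.92 and 7.74 in the inputs. Its mean was 3.37-fold lower in the IPs (log2 -1.75, SE 0.10, limma adjusted p = 1.66e-08), with no overlap. The IP values of Cp were close to 5.64, the floor for testing. All 5 Leydig cell markers were lower in the same IPs, with a mean log2 signal of 7.59 to 8.06 against 9.29 to 9.81 in the inputs. Their part in the Cp value was not tested. Fth1, the ferritin heavy chain, had 10.94, 10.78, 10.83, 11.02 and 10.76 in the IPs, all below the inputs at 11.54, 11.38, 11.47, 11.34 and 11.29. This difference of -0.54 was 1.45-fold in size and stayed under the threshold. Steap4 was also lower in every IP (5.58 to 5.81, 3 of 5 under the floor of 5.64) than in any input (5.99 to 6.42).

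Tfrc, the receptor that takes up transferrin, was not called. Its IP signals of 8.90, 9.42, 9.13, 8.49 and 9.13 overlapped the inputs at 8.69, 8.58, 8.49, 8.65 and 8.67, and the difference was 0.40 (SE 0.14, limma adjusted p = 0.0238). Slc39a14 and Steap3 differed by 0.22 and 0.17. Thus the ligand and the endosomal transporter reached the 2-fold threshold in the Sertoli IPs. The receptor and the endosomal reductase passed the adjusted p in the same direction but not the fold. The genes were not tested against each other.

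The same comparison in Cyp17iCre: RiboTag testis asked which of the genes were carried by Leydig cell ribosomes. Of 10 genes tested, Cp, Heph and Trf were called higher and 0 were called lower by limma. Here 11.0% of the 24705 probe sets tested were called higher and 10.7% lower. An unadjusted p under 0.05 was reached by 9 of the 10 genes, and by 16166 of all probe sets tested. The 2 of these genes with negative differences were Slc40a1 (-0.73) and Steap4, which was under the floor in 2 of the 3 IPs and at least 1.41-fold lower there.

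Cp had 10.32, 10.72 and 10.29 in the 3 Leydig IPs, against 7.51, 7.66 and 7.45 in the inputs. All IPs lay far above all inputs, and the fold was 7.49 (log2 2.90, SE 0.13, limma adjusted p = 8.22e-07). Heph, the membrane-bound ferroxidase, had 7.77, 7.74 and 7.74 in the IPs and 5.68, 5.36 and 5.44 in the inputs. The IPs differed by less than 0.1 among themselves. Since 2 of the 3 inputs were under the floor of 5.64, the difference is a lower bound: with those raised to the floor Heph was at least 4.28-fold higher in the IPs (limma adjusted p = 6.51e-07 on the measured values). Outside the Leydig IPs, Heph passed a linear signal of 50 on 1 array only, a Leydig input. The 9 macrophage markers had a mean log2 signal of 5.65 to 5.74 on these IP arrays, against 6.72 to 6.89 for the inputs, and Cd14 alone among them was above its inputs (0.76, short of the 2-fold threshold). By group mean, 4 of the 9 were under the floor in the IPs and 1 in the inputs. Their part in the Cp and Heph values was not tested.

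Trf had 9.86, 10.19 and 9.80 in the Leydig IPs, against 8.28, 8.59 and 8.38 in the inputs, without overlap, a 2.89-fold difference. The 9 Sertoli cell markers had a mean log2 signal of 9.05 to 9.37 in these IPs, 8.75 to 8.85 in their inputs and 11.08 to 11.22 in the saline Sertoli IPs. By limma 0 of the 9 were called in the Leydig IPs. An unadjusted p under 0.05 was found for 4, and the largest difference was that of Clu (0.99). Their part in the Trf value was not tested.

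Fth1 had 12.50, 12.27 and 12.08 in the Leydig IPs, all above the inputs at 11.65, 11.59 and 11.75 (difference 0.62, SE 0.12, limma adjusted p = 0.00202). Steap3 was likewise above, with 7.43, 7.88 and 7.48 against 6.79, 6.76 and 6.73 (difference 0.84, SE 0.12, limma adjusted p = 5.07e-04). Slc40a1 had 5.80, 5.81 and 5.76 in the Leydig IPs, close to the 5.64 used as the floor for testing, and 6.51, 6.48 and 6.56 in the inputs. Slc11a2 differed by 0.53 and Slc39a14 by 0.25. Tfrc overlapped, with 8.21, 8.03 and 9.07 in the IPs and 8.43, 8.53 and 8.27 in the inputs; its difference of 0.02 had a 95% CI of -0.55 to 0.60, and the third IP stood apart from the other two.

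**Figure D2:**
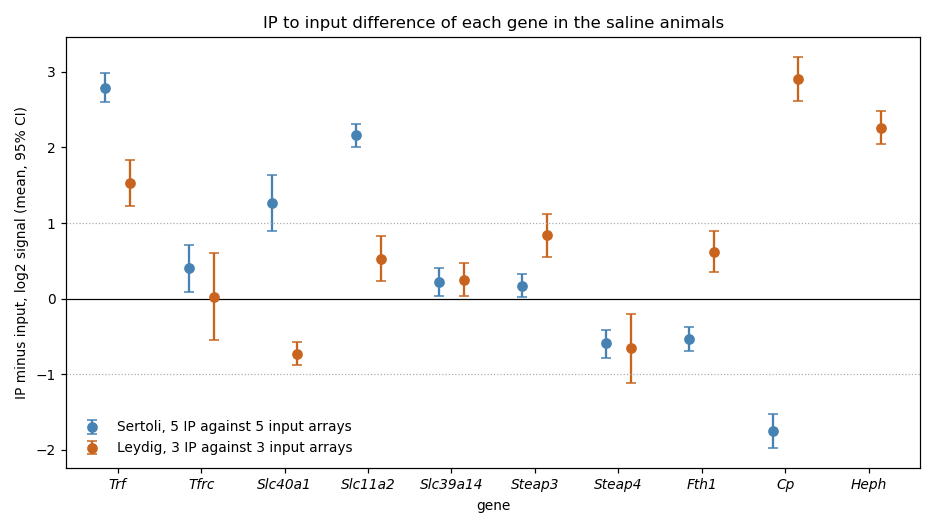
Difference between IP and input (log2 signal, mean with 95% CI from limma) of each gene in saline-treated mice of both lines. Dotted lines mark a 2-fold difference. Cp was at 2.90 in the Leydig and -1.75 in the Sertoli line, and Slc40a1 at -0.73 and 1.27; Heph was not tested in the Sertoli line, and 2 of its 3 Leydig inputs were under the floor.

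Whether the IP to input ratio differed between the 2 lines was tested as an interaction over the 16 saline arrays. Of the 10 genes, Cp, Heph and Fth1 were called with a higher ratio in the Leydig line and Slc40a1, Slc11a2 and Trf with a higher ratio in the Sertoli line. Among the 25524 probe sets tested, 5.48% were called with a higher and 5.98% with a lower ratio in the Leydig line. For Cp the ratio was 25.3-fold higher in the Leydig line (log2 4.66, SE 0.18, limma adjusted p = 1.06e-11). The saline Sertoli IPs of Cp (5.66 to 6.11) were close to the floor of 5.64, which limits the size of this fold. For Fth1 the ratio was 2.23-fold higher (log2 1.16, SE 0.13). Heph passed the filter through the Leydig arrays alone, being under the floor on all 10 saline Sertoli arrays, so that no Sertoli ratio was measured and no size is given for it. In the other direction the ratio of Slc40a1 differed by -1.99 (SE 0.24, limma adjusted p = 4.18e-06), that of Slc11a2 by -1.63 (SE 0.14) and that of Trf by -1.26 (SE 0.16). Steap3 differed by 0.66 (limma adjusted p = 7.06e-04) and did not reach 2-fold. For Tfrc, Slc39a14 and Steap4 the 95% CIs were -0.99 to 0.24, -0.26 to 0.32 and -0.50 to 0.36.

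Of the genes that act in export, ferroportin thus had the higher ratio in the Sertoli line and the ferroxidase Cp in the Leydig line, as had the storage protein Fth1. Across all arrays Slc40a1 was between 7.88 and 8.44 in the 15 Sertoli IPs and between 5.58 and 6.17 in the 9 Leydig IPs. Cp spanned 5.45 to 6.15 in the former and 9.55 to 10.72 in the latter, and Slc11a2 spanned 10.53 to 10.94 and 8.66 to 9.31. The 2 sets of IPs did not overlap for any of these 3 genes under any treatment. Steap3 separated them too, at 6.99 to 7.17 in the Sertoli and 7.43 to 8.31 in the Leydig IPs. So did Heph, which was under the floor in every Sertoli IP. How many of all probe sets separate the IPs was not counted, so the lack of overlap is a description only. Trf was also above in every Sertoli IP, at 10.56 to 11.56 against 8.46 to 10.19. The Trf inputs of both lines lay between 8.28 and 8.68. Of the treated Leydig IPs only the second acyline array (8.46) was within this range, and the rest were at 8.69 to 9.28. Over the 12 group means Cp and Slc40a1 had a Pearson r of -0.97 and Cp and Heph of 0.96, given as a description since the groups share the 2 lines and Heph was under the floor in all Sertoli groups.

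The transcripts most like a member in pattern were also taken from the correlation over the 12 group means. For Cp these were Pam (r = 0.999), which encodes an enzyme that amidates peptides, Lbp (0.998) and Sparcl1 (0.997). For Heph they were Sec14l4 (0.997), Glul and Aox1 (both 0.996), for Slc40a1 Cdyl2, Cdh23 (both 0.997) and Nptx2 (0.996), and for Slc11a2 Zfp410, Agpat4 and Adam17 (all 0.997). For Trf they were Fkbp14 (0.988), Hsp90b1 (0.987) and Lrpap1 (0.986). By group mean Heph was under the floor in the Leydig inputs and every Sertoli group. Its r thus rests mainly on the contrast of those groups with the Leydig IPs. All these transcripts were picked for the highest r over many probe sets and are given as a description.

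Promoter windows from RefSeq (GRCm38.p6), reaching from 250 bases before to 50 after a start site, were held for 5 of the 10 genes: Tfrc, Steap3, Steap4, Fth1 and Cp. They are shown for the gene with the largest difference between the lines (Cp) and for the 2 genes that differed most after LH (Tfrc and Fth1, described below), 1 window each, on the plus strand; where a gene has several, the one with a match nearest to its start site was chosen, after the matches were known. On both strands of all 11 windows of these genes 4 motifs were searched: ACGTG, the core of the hypoxia response element; TGACG, the half-site of the cAMP response element; AAGGTCA, the core of the site bound by the steroidogenic factor NR5A1; and TATAAA, the TATA box. Matches are in capitals. ACGTG and TGACG can overlap in TGACGTG, which does not occur in these windows.
Tfrc, chr16:32608646-32608945: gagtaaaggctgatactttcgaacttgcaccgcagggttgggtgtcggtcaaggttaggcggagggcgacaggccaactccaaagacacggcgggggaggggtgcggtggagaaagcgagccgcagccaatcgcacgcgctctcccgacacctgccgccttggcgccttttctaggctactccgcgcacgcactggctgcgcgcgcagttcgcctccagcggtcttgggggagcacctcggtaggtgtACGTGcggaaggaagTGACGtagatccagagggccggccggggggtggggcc
Fth1, chr19:9982396-9982695: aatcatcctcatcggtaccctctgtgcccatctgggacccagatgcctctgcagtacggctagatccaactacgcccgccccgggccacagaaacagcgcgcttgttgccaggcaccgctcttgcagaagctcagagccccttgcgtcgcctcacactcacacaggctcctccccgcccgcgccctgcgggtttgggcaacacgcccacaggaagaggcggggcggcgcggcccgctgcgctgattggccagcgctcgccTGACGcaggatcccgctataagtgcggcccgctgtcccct
Cp, chr3:19956999-19957298: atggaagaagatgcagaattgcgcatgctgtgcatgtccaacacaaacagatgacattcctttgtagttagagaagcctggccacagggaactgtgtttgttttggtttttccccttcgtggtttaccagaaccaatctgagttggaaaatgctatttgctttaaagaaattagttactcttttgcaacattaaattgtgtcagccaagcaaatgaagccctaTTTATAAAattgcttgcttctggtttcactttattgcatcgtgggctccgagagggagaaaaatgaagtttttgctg

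In the Tfrc window ACGTG began 2 bases before the start site and TGACG at base 14 after it, and in the Fth1 window TGACG began at base 11 after the start site. The Cp window held TATAAA on both strands, overlapping, from 27 and 25 bases before its start site. The other Cp window, from base 19956804 of the chromosome, held no match, and the other Fth1 window held TATAAA on the opposite strand from 124 bases before its start site. Of all 32851 windows of the same length, 19.6% held ACGTG, 20.8% TGACG, 4.7% AAGGTCA and 13.6% TATAAA. Of the 11 windows of the 5 genes, which partly overlap, 2, 3, 0 and 3 held them in that order. A match is a stretch of letters and not a bound site.

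Other genes of iron handling were taken from a list of 37, all measured and 34 tested in each line. In the Sertoli IPs 9 were higher and 4 lower, against 12.4% and 11.7% of all probe sets tested. The median difference of the genes tested was -0.01, against -0.03 over all probe sets. The largest were Aco1, the cytosolic aconitase that doubles as iron regulatory protein (2.49), Hfe, a partner of the transferrin receptor (2.26), Exoc6, an exocyst subunit needed for transferrin recycling in red cell precursors (2.15), and Scara5, a ferritin receptor (2.14). The 4 lower were Lcn2, a carrier of iron-binding siderophores (-2.46), the mitochondrial ferritin Ftmt (-2.05), the mitochondrial iron importer Slc25a37 (-1.27) and the metal importer Slc39a8 (-1.17). In the Leydig IPs 9 were higher and 2 lower, against 11.0% and 10.7% of all probe sets tested. The median was 0.13, against -0.03 over all probe sets. The largest were Aco1 (2.52), Bmp6, which signals iron stores in the liver (2.05), Lrp1, a receptor that clears heme bound to hemopexin (1.87), and Lcn2 (1.77). Ftmt (-2.22) and Slc39a8 (-1.09) were lower in this line too. Of the red cell list 2 of 6 markers were measured; Alas2, the erythroid enzyme of heme synthesis, was higher in the Sertoli IPs (2.01) and Slc4a1, the red cell anion exchanger, differed by 0.07 (limma adjusted p = 0.461).

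In the test of the ratio between the lines 4 of the 34 iron genes were higher in the Leydig line and 4 lower. Over all probe sets tested 5.48% were called higher and 5.98% lower. The median of the iron genes was -0.07, against -0.03 over all probe sets. Higher were Lcn2 (4.23), Bmp6 (2.66), the ferritin light chain Ftl1 (1.76) and the ferric reductase Cybrd1 (1.21). Lower were Scara5 (-2.23), the heme transporter family member Flvcr2 (-2.00), Exoc6 (-1.65) and the heme and folate transporter Slc46a1 (-1.02). Both ferritin chains thus had a higher ratio in the Leydig line: the mean of Ftl1 was 10.58 in the Leydig IPs against 9.22 in their inputs, and 9.03 against 9.43 in the Sertoli line. Ferritin genes have many processed copies in the mouse genome, and no source used here says whether the probes tell them apart. For Lcn2 the means were 13.52 against 11.76 in the Leydig line and 8.96 against 11.42 in the Sertoli line.

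Of 22 genes of copper transport and copper enzymes 21 were measured. In the Sertoli IPs 7 of 19 tested were higher and 1 lower, against 12.4% and 11.7% of all probe sets tested. The median was 0.13, against -0.03 over all probe sets. Apart from the hephaestin relative Hephl1, the largest were Atp7a, the copper pump that loads secreted copper enzymes (2.70), and the extracellular superoxide dismutase Sod3 (1.96). Sco1, a copper chaperone of cytochrome oxidase, followed (1.37). The 7 include Hephl1, which was under the floor in all 5 inputs and at least 1.81-fold higher in the IPs (mean 6.50). Its call at 2-fold thus rests on input values under the floor. In the Leydig IPs 8 of 18 tested were higher and 1 lower, against 11.0% and 10.7% of all probe sets tested. The median was 0.42, against -0.03 over all probe sets. The largest were the metallothionein Mt3 (2.15), Sod3 (2.12), Ccs, the copper chaperone of superoxide dismutase (1.41), and Sod1 (1.26). The lower one was the metal-responsive factor Mtf1 in both lines, by -1.43 and -1.71. The ratio was higher in the Leydig line for Mt3 (2.22) and Ccs (1.80) and lower for Atp7a (-1.56). Aoc3 was also called with a higher ratio and Hephl1 with a lower one, but Aoc3 was under the floor in the saline Sertoli IPs (mean 5.28) and Hephl1 in the Leydig inputs and saline Leydig IPs (means 5.00 and 4.98), so that their ratios have no measured size. Of 22 genes of iron-sulfur cluster assembly 18 were measured and tested. In the Leydig IPs 2 were called higher and 0 lower, against 11.0% and 10.7% of all probe sets tested. The median was -0.11, against -0.03 over all probe sets. The 2 were Fdx1, the ferredoxin that feeds electrons to steroid-making P450 enzymes (2.55), and the scaffold Iscu (1.39). In the Sertoli IPs 0 of the 18 were called by limma, against 12.4% of all probe sets called higher and 11.7% lower. An unadjusted p under 0.05 was found for 11 of them, against 17668 of 24797 probe sets. For Fdx1 and Iscu the ratio was also called higher in the Leydig line, by 2.66 and 2.06, and 0 of the 18 were called lower. Over all probe sets tested 5.48% were called with a higher and 5.98% with a lower ratio.

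**Figure D3:**
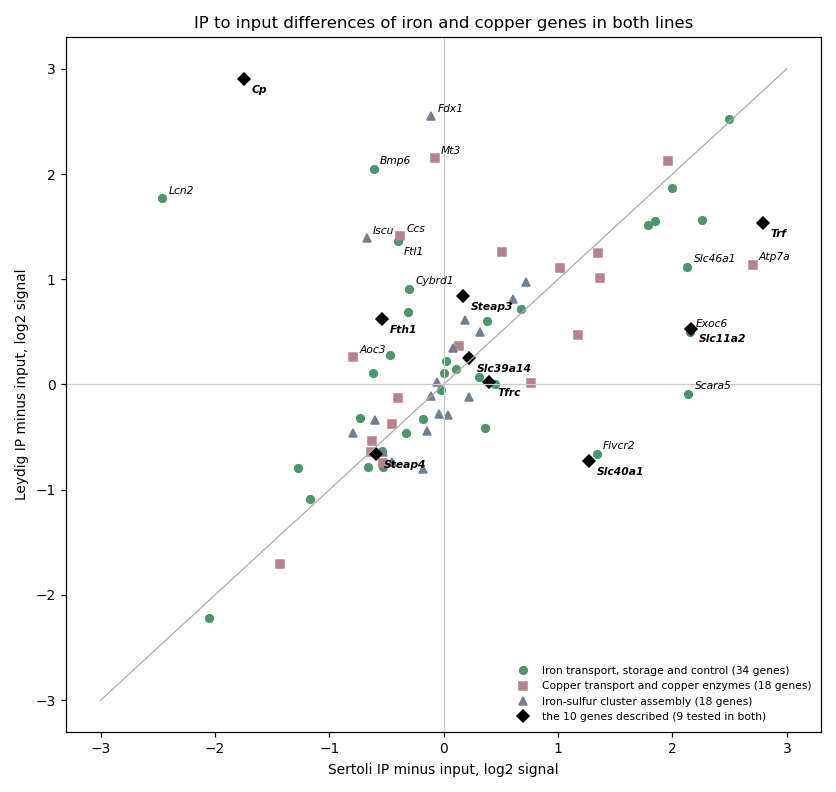
Difference between IP and input (log2 signal) in the Sertoli line (horizontal) and in the Leydig line (vertical), saline-treated mice. Black diamonds are the described genes tested in both lines; circles, squares and triangles are other genes of iron handling, copper handling and iron-sulfur cluster assembly, named where the ratio differed between the lines, and the diagonal marks equal differences. Cp and Lcn2 lie at upper left, Slc40a1, Flvcr2 and Scara5 at lower right.

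Hormone effects were tested among the IPs of each line, where a call required a fold of at least 1.5 besides the adjusted p under 0.05. In Leydig cells, acyline against saline asked what was lost with the gonadotropins. Of the 10 genes 0 were called by limma, against 0.143% of 24461 probe sets, and 5 had an unadjusted p under 0.05, as had 3346 of those probe sets. Cp had 9.62 and 9.55 after acyline, below all 3 saline IPs at 10.32, 10.72 and 10.29. Its difference was -0.86 (95% CI -1.16 to -0.55, unadjusted p = 1.71e-04, limma adjusted p = 0.0691). Trf had 9.28 and 8.46, also below the saline IPs at 9.86, 10.19 and 9.80, and differed by -1.08 (95% CI -1.68 to -0.47, limma adjusted p = 0.166). Without the second acyline array the Trf difference was -0.67, and without the first it was -1.48.

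The remaining 3 with an unadjusted p under 0.05 were Steap3, Heph and Slc39a14. Steap3 had 8.06 and 8.03 after acyline, above all saline IPs (difference 0.45, 95% CI 0.10 to 0.79). Heph had 7.51 and 7.21, below them (difference -0.39, 95% CI -0.76 to -0.02), and Slc39a14 differed by -0.38. The limma adjusted p of these 3 was 0.256, 0.339 and 0.349. Tfrc had 7.58 and 7.25, below the saline IPs at 8.21, 8.03 and 9.07, with a 95% CI of -2.26 to 0.22. The mean log2 signal of the 5 Leydig cell markers was 12.13 and 12.36 after acyline and 12.56 to 12.58 after saline, and that of the 9 Sertoli cell markers 9.01 to 9.19 against 9.05 to 9.37. Of the Leydig cell markers 0 were called by limma and 5 had an unadjusted p under 0.05. Their part in the differences of Cp, Trf and Heph was not tested.

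At 1 h after LH 0 of the 10 genes were called by limma against acyline, and 0 had an unadjusted p under 0.05. Over all probe sets 0.00818% were called and 1483 had such a p. Trf had 9.26 and 8.69, Heph 7.57 and 7.15, and Cp 9.83 and 9.72, with each mean nearer to that of the acyline than of the saline IPs.

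At 4 h after LH 0 of the 10 genes were called by limma against acyline, while 0.613% of the probe sets were called and an unadjusted p under 0.05 was found for 3 of the genes and 4470 of the 24461 probe sets. Tfrc had 10.61 and 8.47, both above the acyline IPs at 7.58 and 7.25. The first array was the highest of all 32 for this gene, and the second lay within the range of the saline IPs. The difference was 2.13 (SE 0.60, 95% CI 0.77 to 3.48, limma adjusted p = 0.129). Fth1 moved in the opposite sense, with 11.11 and 11.72 after LH and 12.13 and 12.28 after acyline, a difference of -0.79 (95% CI -1.26 to -0.31, limma adjusted p = 0.116). Slc39a14 had 7.65 and 7.09 against 6.78 and 6.96, a difference of 0.50 (limma adjusted p = 0.197). For all 3 genes the first LH array was farther from the acyline arrays than the second. Without the second LH array all 3 were called, Tfrc at 3.20 (limma adjusted p = 0.0129), Fth1 at -1.10 (0.0370) and Slc39a14 at 0.77 (0.0471). Without the first, the differences of Tfrc, Fth1 and Slc39a14 were 1.06 (0.279), -0.48 (0.301) and 0.22 (0.490). Fitted with only the groups compared, the adjusted p of Tfrc was 0.278.

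In the first of these LH arrays the 5 Leydig cell markers had a mean log2 signal of 12.79 and the 9 Sertoli cell markers of 8.78, the highest and the lowest of the 9 Leydig IPs. In the second they were 12.54 and 9.22. Their part in the values of Tfrc and Fth1 was not tested. Red cell precursors carry much transferrin receptor, and of 6 red cell markers 2 were measured. Alas2 had means of 8.44 after LH and 7.97 after acyline (difference 0.48, limma adjusted p = 0.668), and it was also called higher in the Sertoli IPs than in their inputs. Slc4a1 had means of 5.90 and 6.16 (difference -0.26, unadjusted p = 0.0379, limma adjusted p = 0.249). The mean log2 signal of these 2 markers was 6.79 and 7.56 in the first and second LH arrays, and 7.34 and 6.79 after acyline. Their part in the Tfrc value was not tested. After 4 h of LH Cp was at 9.61 and 9.58, Trf at 9.14 and 8.75 and Heph at 7.54 and 7.16, each overlapping the acyline IPs and below all saline IPs. Their differences from acyline had 95% CIs of -0.33 to 0.34, -0.59 to 0.73 and -0.42 to 0.39. The LH and the acyline comparisons share the acyline arrays.

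**Figure D4:**
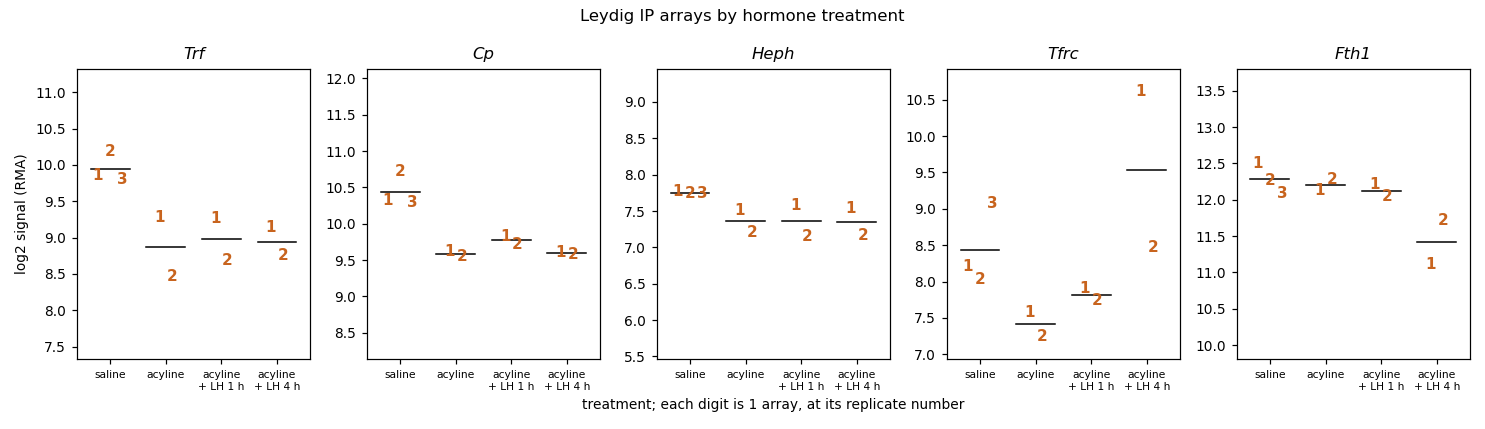
Log2 signal of Trf, Cp, Heph, Tfrc and Fth1 in the 9 Leydig IPs by treatment; all panels span 4 log2 units, each digit is 1 array at its replicate number and lines are group means. After acyline, Trf, Cp and Heph lie below the saline arrays with or without LH, and array 1 of LH 4 h stands apart for Tfrc (10.61).

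In Sertoli cells, acyline against saline gave 0 calls by limma among the 9 genes tested, 0 with an unadjusted p under 0.05 (1234 over all probe sets), and 0.00406% of the 24648 probe sets called. Trf had 11.35 and 11.20 after acyline, within the saline range of 11.15 to 11.56 (difference -0.05, 95% CI -0.42 to 0.31). For Slc11a2 and Slc40a1 the 95% CIs were -0.33 to 0.05 and -0.31 to 0.21. Cetrorelix against saline gave 0 calls by limma, 2 genes with an unadjusted p under 0.05 (1229 over all probe sets) and 0.0122% of the probe sets called. Trf had 10.88 and 10.72 after cetrorelix, below all 5 saline IPs (difference -0.53, 95% CI -0.89 to -0.16, limma adjusted p = 0.933). Slc40a1 had 8.35 and 8.43, between the highest saline IP at 8.44 and the rest of them at 7.91 to 8.03 (difference 0.32, 95% CI 0.07 to 0.58, limma adjusted p = 0.933).

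Testosterone after cetrorelix gave 0 calls by limma, 1 gene with an unadjusted p under 0.05 (1234 over all probe sets) and 0.00406% of the probe sets called. That gene was Slc40a1, with 8.04 and 7.99, below both cetrorelix IPs (difference -0.37, 95% CI -0.68 to -0.07, limma adjusted p = 0.930). Trf had 10.56 and 11.30, which spanned the cetrorelix values. FSH for 1 h gave 0 calls by limma among the genes and 0% over all 24648 probe sets, where 2324 had an unadjusted p under 0.05. The absence of calls depended on the cetrorelix arrays in the shared fit: 73 probe sets were called without the first of them and 74 without the second, and still 0 of the genes. Among the genes described, Fth1 alone had an unadjusted p under 0.05, with 10.67 and 10.62 against 10.94 and 10.83 after acyline (difference -0.24, limma adjusted p = 0.526). FSH for 4 h gave 0 calls by limma, 0 genes with an unadjusted p under 0.05 (1085 over all probe sets) and 0.0203% of the probe sets called. These comparisons share the acyline, cetrorelix or saline arrays.

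The acyline effect was compared between the lines as an interaction, over different lengths of treatment (4 days in the Leydig and 3 in the Sertoli line). Of the 10 genes 0 were called by limma, against 0.0669% of 25399 probe sets, and an unadjusted p under 0.05 was found for 3 of them and 2199 probe sets. The difference was -1.02 for Trf (95% CI -1.70 to -0.35, limma adjusted p = 0.315), -0.68 for Cp (-1.18 to -0.18, adjusted p = 0.392) and 0.42 for Steap3 (0.12 to 0.73, adjusted p = 0.388). Among the other genes, 0 of the iron, copper and iron-sulfur lists were called by limma in any of the 9 hormone comparisons. After 4 h of LH an unadjusted p under 0.05 was found for 7 of 33, 5 of 18 and 6 of 18 tested genes of the 3 lists, against 4470 of 24461 probe sets.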

How the data were processed

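The authors amplified and labeled equal amounts of RNA, hybridized it to Affymetrix Mouse Gene ST arrays, and deposited RMA-normalized signals on the log2 scale (35556 probe sets, 32 arrays), per their processing notes. No source used here gives the RMA version or a genome build. The study's own tests used GeneSpring. All columns were used.

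Groups came from the labels of each sample. Probe sets were named by a probe-to-gene table: 21789 had 1 symbol, 1621 several and 12146 none. Each gene was represented by the probe set with the highest mean; each member has 1. Members and lists were chosen with earlier results of these data known. Named genes are all members, called genes of the lists (at most 4 per direction by size of the change) and the 3 transcripts most like each called member.

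limma 3.58.1 in R 4.3.3 was fitted to the log2 values of probe sets with a linear signal over 50 in at least 1 array of the fit, without a replicate block: IP against input within a line, hormone effects among all IPs of a line, and interactions over both lines. P-values were adjusted by Benjamini-Hochberg within a comparison. The fits were tested on simulated data. The number of arrays limits the precision. Figures and sequences used Python 3.11.15 and matplotlib 3.10.9.

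The alternatives tried were no filter, median-centered arrays, quantile normalization, no moderated variances, no adjustment, no fold threshold, a replicate block, only the groups compared, Sertoli saline limited to replicates 1 to 3, leaving out the FSH 1 h arrays and leaving out each array in turn; a crossed replicate block was added after seeing the data.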

Additional observations from a re-analysis of the deposited data

Results flagged for a closer look

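In 2 of 20 tests of groups of 5 arrays, 1 array stood far from the other 4, where chance marks about 1 in 20 groups. They were Slc40a1 in the first saline Sertoli IP (8.44) and Steap3 in the third Sertoli input (6.70). Leaving out any 1 array kept the Slc40a1 difference between Sertoli IP and input at 1.16 to 1.39 and called. That of Steap3, short of 2-fold throughout, was 0.12 to 0.19 with a limma adjusted p of 0.0348 to 0.0839.

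Of the 10 genes, 6 passed limma's interaction test at 2-fold between the Leydig and Sertoli lines, also without any 1 of the 16 arrays. The IP to input difference (log2) differed for Cp by 4.66, Fth1 by 1.16, Trf by -1.26, Slc11a2 by -1.63 and Slc40a1 by -1.99. The remaining gene was Heph, with a fitted value of 2.40. That value rests on Sertoli arrays that were all under the floor of 5.64, and on 2 such Leydig inputs, and is no measured size. No Sertoli ratio was measured for Heph, so its passing, with or without any 1 array, cannot show that the ratios differ.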

How the results depend on the processing

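The number of genes called was 4, 3 and 6 for Sertoli IP against input, Leydig IP against input and the ratio between the lines, without each array in turn and under every other alternative except no fold threshold, under which it was 9, 8 and 7. The 6 and the 7 include Heph, which had no measured Sertoli ratio, so its staying called says nothing of the ratio. In the hormone comparisons the number of genes called was 0 and stayed 0 under all alternatives but 2. With no p-value adjustment it was 2 for Leydig acyline (Trf and Cp), 2 for LH 4 h (Tfrc and Fth1) and 2 for the acyline effect between the lines (Trf and Cp), and without 1 array the LH 4 h count ranged from 0 to 3. Differences near 0 changed sign: Tfrc in Leydig IP against input was -0.0019 after quantile normalization and -0.29 to 0.23 without 1 array; Slc39a14 in the ratio between the lines was -0.03 with median-centered arrays, -0.05 after quantile normalization and -0.03 to 0.10 without 1 array; Steap4 in that ratio was -0.26 to 0.08. The cause was not tested. Over all probe sets, LH 4 h gave 150 calls (40.0% higher), against 19 without a filter, 242 with median-centered arrays (66.9% higher), 91 after quantile normalization, 2 without moderated variances, 1 with only the groups compared and, without 1 array, from 1 (the second acyline array) to 482 (the second LH array). Leydig acyline gave 35, against 15 without a filter, 0 without moderated variances, 246 with only the groups compared and 2 to 147 without 1 array. The acyline effect between the lines gave 17, against 11, 10 and 28 without a filter, without moderated variances and with only the groups compared; under the same settings in that order FSH 4 h gave 5, against 3, 2 and 0, and cetrorelix 3, against 1 under each. LH 1 h gave 2, against 0 under each, and Sertoli acyline 1, against 8 with Sertoli saline limited to replicates 1 to 3. Without 1 array, FSH 1 h gave 0 to 74 (73 and 74 without the first and second cetrorelix arrays, 97.3% higher), LH 1 h 0 to 14 (14 without the second LH 1 h array), the acyline effect between the lines 6 (without the second Sertoli acyline array) to 45 (without the second Leydig saline array), FSH 4 h 1 to 7 and cetrorelix 1 to 4.

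The study describes each IP with its own input, but no source says that equal replicate numbers mark them. Deviations of same-numbered IPs and inputs correlated weakly, at -0.03 to 0.14 (Sertoli) and 0.03 to 0.15 (Leydig). Only the value of Sertoli replicate 4 was negative. The best-correlated input had the same number for Sertoli IPs 3 and 5 and Leydig IPs 1 and 2. It had another number for Sertoli IPs 1, 2 and 4 and Leydig IP 3. These values do not settle whether equal numbers mark pairs. The replicate block gave the same counts of member calls in all comparisons (4, 3, 6 and 0); over all probe sets it gave 4 calls for LH 4 h and 0 for Leydig acyline. Crossing the numbers, chosen after seeing the data, gave 0 member calls for LH 4 h and for testosterone, and 9 calls over all probe sets for LH 4 h.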
